A study of Mus musculus with 4 samples.

Results

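The albumin family and apolipoprotein genes described here are Afp, Alb, Gc, Apoa1, Apoa4, Apob and Apom, 7 of the 235 named genes in the 6 tables the authors deposited. They were chosen by name after earlier results of these data were known, and each was in the tables only because the authors had called it between at least 1 pair of libraries. Which tables list a member, and its levels there, therefore made the choice and are given as a description with no test. RNA came from gonads of wildtype CD1 mouse embryos at E13.5, described as testis in the labels and dissected free of the mesonephros. The stated design is about NSAID and acetaminophen exposure in utero and how the testis forms. The groups were ACE+ACE (acetaminophen), ASP+ACE (aspirin with acetaminophen), IBU+ACE (ibuprofen with acetaminophen) and Control (treatment none, named EtOH inside the tables), with 1 library in each group. Doses, days of exposure and the number of embryos behind a library are unknown here.

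Afp, Alb and Gc encode related carrier proteins of blood plasma and descend from 1 ancestral gene. Alpha-fetoprotein is the main plasma protein of the fetus, made by fetal liver and yolk sac, albumin takes over that place around birth, and the Gc product carries vitamin D and binds actin. Apolipoproteins are the protein parts of lipoprotein particles: Apoa1 and Apom belong to high-density lipoprotein, Apob forms the frame of low-density and very-low-density particles, and Apoa4, made mainly by the intestine, joins chylomicrons and high-density lipoprotein. Each has liver, intestine or yolk sac among its main sources, and none is used as a marker of testis cell types.

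The 3 carrier genes lie on chromosome 5, as the deposited loci place them on GRCm38. Gc runs from 89417522 to 89457899 on the minus strand, Alb from 90460897 to 90476602 and Afp from 90490737 to 90515931 on the plus strand. A gap of 14.1 kb separates Alb from Afp, and 1003 kb separates Gc from Alb. Apoa1 (46228580 to 46230466) and Apoa4 (46240696 to 46243529) are neighbours on chromosome 9, 10.2 kb apart and both on the plus strand. Apob lies on chromosome 12, from 7977648 to 8016927 on the plus strand, and Apom on chromosome 17, from 35128976 to 35132249 on the minus strand. The Afp locus also covers the antisense gene Gm43449, and the Apoa4 locus covers the minus-strand genes Gm47528 and Gm10680. The sources used here do not say whether the authors assigned reads by strand, so reads of those genes could add to the Afp and Apoa4 values.

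The sequences before the starts of Afp and Alb are shown because these neighbours had the highest levels of the group and their proportion to each other differed between libraries. Each is the 250 bases before the RefSeq start (GRCm38.p6), 5′ to 3′ on the plus strand, with TATAAA, the core of the TATA box, in capitals. They stand at chr5:90490464-90490713 for Afp and chr5:90460620-90460869 for Alb.
Afp: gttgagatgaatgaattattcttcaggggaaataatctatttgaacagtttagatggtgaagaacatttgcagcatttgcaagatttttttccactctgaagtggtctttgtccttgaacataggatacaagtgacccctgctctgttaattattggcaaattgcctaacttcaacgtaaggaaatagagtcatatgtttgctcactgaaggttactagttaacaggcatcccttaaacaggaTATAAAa
Alb: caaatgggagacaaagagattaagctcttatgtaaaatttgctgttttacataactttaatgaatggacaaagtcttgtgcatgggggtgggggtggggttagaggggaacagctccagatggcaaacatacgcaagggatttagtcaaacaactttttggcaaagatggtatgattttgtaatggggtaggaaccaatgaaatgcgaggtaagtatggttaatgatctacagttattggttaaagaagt
TATAAA, searched on both strands, began 7 bases before the RefSeq start of Afp and was not among the letters of the Alb window. The deposited loci start further downstream than RefSeq, at 90490737 against 90490714 for Afp and 90460897 against 90460870 for Alb. The distance therefore depends on the start used, and the bases between the RefSeq and deposited Alb starts were not searched. It was in 2 of the 7 members' windows, those of Afp and Apob, and in 12.4% of the 32851 RefSeq windows of the same length. The motif was picked after the windows had been read, and a match is a run of letters, not a bound site.

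Levels are the authors' deposited values, taken as FPKM, which are scaled to transcript length and to the mapped fragments of the library, so they can be compared between genes. With 1 library per group there is no replicate spread, and each comparison is between libraries and not between conditions. Rose and fell are used only of genes that the authors' deposited table for that pair lists; the q-value is 0.0310 in every row. Of 28 possible values, 25 could be read: Apob has none for ASP+ACE, and Apom none for ASP+ACE or IBU+ACE, because no table lists them there. A missing row means no call, not an equal level. The number of reads behind a value is unknown. IBU+ACE stood apart from the other libraries: 185 transcripts of all kinds were called for it against Control, compared with 67 in ACE+ACE and 44 in ASP+ACE, so results that rest on IBU+ACE rest on that library alone.

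All 7 members fell in the ACE+ACE library against Control, by nearly the same factor. Their levels were 25.2% to 30.6% of the Control level, and the median log2 ratio was -1.93. In the ASP+ACE library Afp, Apoa1 and Apoa4 fell, while Alb and Gc stood at 88.3% and 98.6% of Control and were not listed. In the IBU+ACE library Apoa4 fell, and the other 5 members with a value stood between 86.5% and 147% of Control with no call. Among transcripts with values in both libraries, the share listed as lower was 27.3% with ACE+ACE, 19.3% with ASP+ACE, and 15.7% when IBU+ACE was set against Control. Those shares cover only transcripts that some table calls, and since the same calls brought the members in, nothing is read from the members' counts against them.

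**Figure D1:**
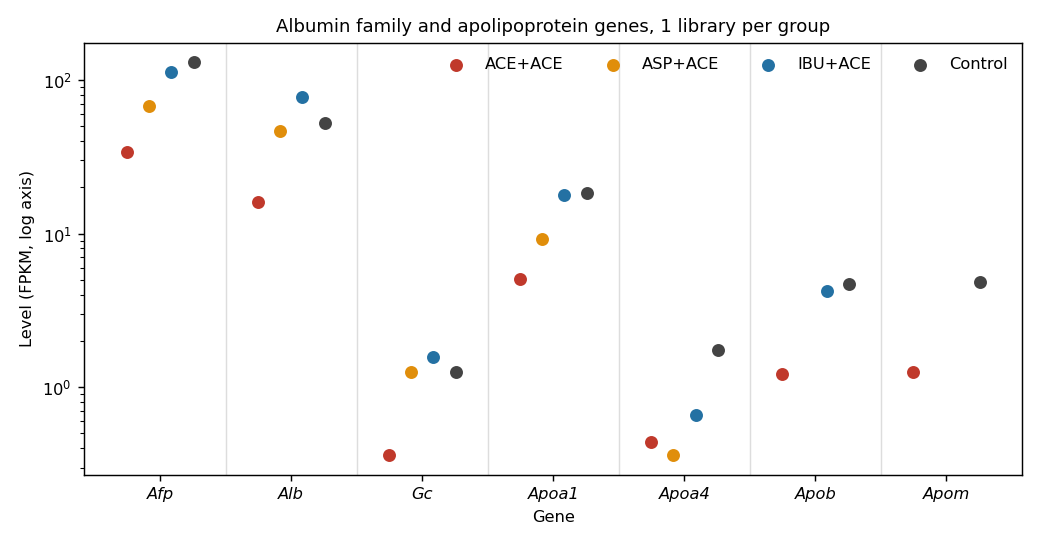
Level in FPKM (log axis) of each gene in the ACE+ACE, ASP+ACE, IBU+ACE and Control libraries, 1 point per library. The ACE+ACE point is the lowest of every gene but Apoa4, whose lowest is ASP+ACE at 0.361 FPKM; missing points are values no table lists.

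Afp had the highest level of the group in all 4 libraries. It stood at 34.2 FPKM in ACE+ACE, 67.8 FPKM in ASP+ACE, 113 FPKM in IBU+ACE and 130.2 FPKM in Control. ACE+ACE is thus the lowest library, ASP+ACE lies between, and IBU+ACE is near Control. In the authors' deposited tables the log2 fold change against Control was -1.93 for ACE+ACE and -0.94 for ASP+ACE, and no row lists IBU+ACE. Afp was in 5 of the 6 tables, more than any other member.

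Alb, which encodes albumin, had 16.1 FPKM in ACE+ACE, 46.4 FPKM in ASP+ACE, 77.3 FPKM in IBU+ACE and 52.6 FPKM in Control. Here the IBU+ACE library was the highest, above Control, without a call between them (log2 ratio 0.56). Its fall in ACE+ACE, a log2 of -1.71 as the authors' deposited table gives it, was the smallest of the 7.

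Gc, for the vitamin D binding protein, had 0.364 FPKM in ACE+ACE, 1.25 FPKM in ASP+ACE, 1.57 FPKM in IBU+ACE and 1.26 FPKM in Control. The order of the libraries was close to that of Alb: ACE+ACE alone was low, and IBU+ACE was the highest. Gc fell in ACE+ACE by a log2 of -1.80 as the authors' deposited table gives it, and its ASP+ACE and Control levels were almost equal.

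Apoa1 encodes the chief structural protein of high-density lipoprotein and had 5.03 FPKM in ACE+ACE, 9.20 FPKM in ASP+ACE, 17.8 FPKM in IBU+ACE and 18.3 FPKM in Control. Its order was that of Afp, at a lower level. In the authors' deposited tables its log2 against Control was -1.87 in ACE+ACE, and in ASP+ACE its level fell to 50.1% of Control.

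Apoa4, its neighbour, was the one member lower than Control in all 3 exposed libraries in the authors' deposited tables. It had 0.438 FPKM in ACE+ACE, 0.361 FPKM in ASP+ACE, 0.661 FPKM in IBU+ACE and 1.74 FPKM in Control. All 3 exposed values lie below Control. They differ among themselves, with IBU+ACE at 1.83 times the ASP+ACE level. No pair of exposed libraries was called for Apoa4, which does not mean equal levels. The authors' deposited tables put it at a log2 of -1.99 in ACE+ACE, -2.27 in ASP+ACE, and, for IBU+ACE, -1.39 against Control. These 3 comparisons share the single Control library, so its value of 1.74 FPKM enters all of them. With 1 FPKM added to both values the ratios shrank to -0.93, -1.01 and -0.72.

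Apob, which carries fat out of liver and intestine, had 1.22 FPKM in ACE+ACE, 4.24 FPKM in IBU+ACE and 4.68 FPKM in Control. Apom, a lipocalin of high-density lipoprotein that carries sphingosine-1-phosphate, had 1.26 FPKM in ACE+ACE and 4.84 FPKM in Control. Both had about equal levels in the libraries where both could be read. Both fell in ACE+ACE, and the authors' deposited table gives a log2 of -1.94 for each.

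**Figure D2:**
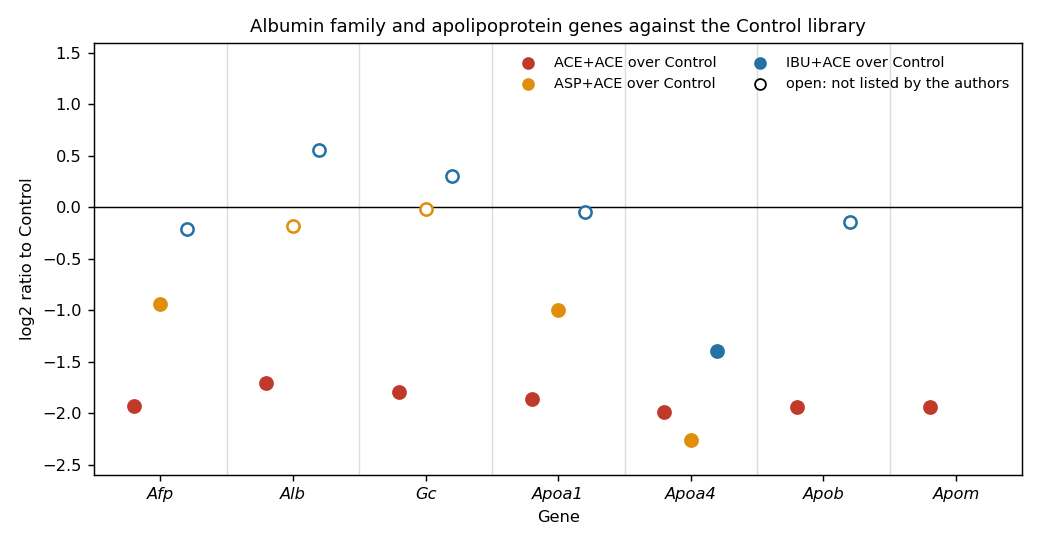
Log2 ratio of each exposed library to Control, by gene; filled points are listed in the authors' deposited tables and open points are not. The ACE+ACE points lie between -1.99 and -1.71 for all 7 genes, whereas ASP+ACE points run from -2.27 to -0.02 and IBU+ACE points from -1.39 to 0.56.

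Between exposed libraries, no member was listed as lower in ASP+ACE than in ACE+ACE, or in IBU+ACE than in either of these. Afp, Alb and Gc rose in ASP+ACE over ACE+ACE, to 1.98, 2.88 and 3.42 times its level. For that pair 8.92% of transcripts with both values were listed as higher. Apoa1 had 1.83 times the level in ASP+ACE without a call, and Apoa4 0.825 times. In IBU+ACE over ACE+ACE 5 of the 6 members with both values rose, beside 81.8% of transcripts listed as higher. Alb rose to 4.80 times, Gc to 4.30, Apoa1 to 3.54, Apob to 3.48 and Afp to 3.29 times the ACE+ACE level. Apoa4 stood at 1.51 times without a call. In IBU+ACE over ASP+ACE, where 79.2% were listed as higher, Afp, Alb and Apoa1 rose to 1.66, 1.67 and 1.94 times. Gc stood at 1.26 and Apoa4 at 1.83 times, neither listed. Each library enters 3 of the 6 tables, so these comparisons are not independent of those with Control. The calls did not follow the size of the ratio alone: the smallest ratio listed was the log2 of 0.73 for Afp in IBU+ACE over ASP+ACE, and the 2 largest ratios not listed were the log2 of 0.87 for Apoa1 in ASP+ACE over ACE+ACE and for Apoa4 in IBU+ACE over ASP+ACE.

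Set against Afp within each library, where library scaling cancels, the members fell into groups. The Apoa1 level was 14.7% of Afp in ACE+ACE, 13.6% of it in ASP+ACE, 15.8% of it in IBU+ACE and 14.1% of it in Control. That ratio varied 1.16-fold over the 4 libraries. Apob was 3.56% of Afp in ACE+ACE, 3.76% in IBU+ACE and 3.60% in Control, and Apom 3.68% in ACE+ACE and 3.71% in Control. These apolipoprotein genes thus kept close proportions to Afp wherever they could be read.

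Alb and Apoa4 did not keep theirs. The Alb level was 47.1% of Afp in ACE+ACE, 68.5% of it in ASP+ACE, 68.6% of it in IBU+ACE and 40.4% of it in Control. ASP+ACE and IBU+ACE thus shared a ratio 1.70 times that of Control. Gc was 1.06% of Afp in ACE+ACE, 1.84% in ASP+ACE, 1.39% in IBU+ACE and 0.971% in Control, so that it, too, was higher than in Control in all 3 exposed libraries. Apoa4 went the other way, with 1.28% of Afp in ACE+ACE, 0.533% in ASP+ACE, 0.587% in IBU+ACE and 1.33% in Control. Set against its neighbour Apoa1, Apoa4 was at 8.71% in ACE+ACE, 3.93% in ASP+ACE, 3.71% in IBU+ACE and 9.47% in Control. ACE+ACE and Control therefore resembled each other in the proportions among members, though all 7 levels were listed as lower in ACE+ACE. No replicate shows how far such ratios move between libraries of 1 group.

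**Figure D3:**
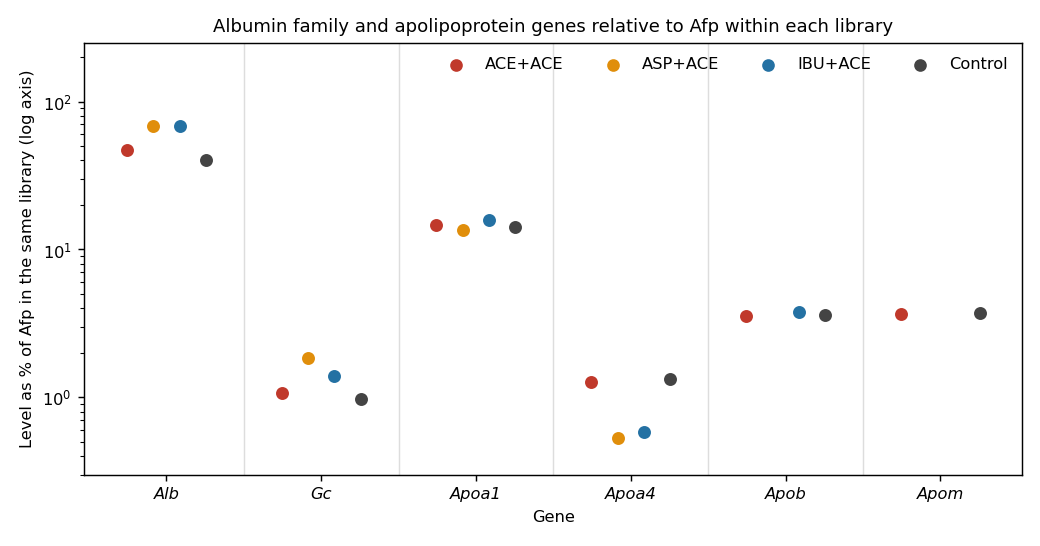
Level of each gene as a percentage of Afp in the same library (log axis), for ACE+ACE, ASP+ACE, IBU+ACE and Control. Apoa1 stays between 13.6% and 15.8%, while Alb is at 68.5% and 68.6% in ASP+ACE and IBU+ACE, against 40.4% in Control, and Apoa4 at 0.533% and 0.587%, against 1.33%.

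Over the 5 members with values in all 4 libraries, the summed level was 56.1 FPKM in ACE+ACE, 125 FPKM in ASP+ACE, 210.0 FPKM in IBU+ACE and 204 FPKM in Control. ACE+ACE therefore held 27.5% of the Control sum, ASP+ACE 61.2% and IBU+ACE 103%. Afp and Alb made up 89.5% to 91.4% of the sum in each library. In IBU+ACE a higher Alb level than in Control stood beside a lower Afp level, with neither listed.

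Patterns were also compared across the 92 named genes with values above 0 in all 4 libraries, by the Euclidean distance between log2 values centred on each gene's mean. Apoa1 was the nearest gene to Afp, at a distance of 0.16. Ambp and Fgb followed at 0.41 and 0.43; they encode alpha-1-microglobulin with bikunin and the fibrinogen beta chain, both liver products. Nearest to Apoa1 were Afp, Ambp (0.42) and Fgb (0.44). Nearest to Alb were Vtn (vitronectin, 0.14), Serpina6 (corticosteroid-binding globulin, 0.23) and Fgb (0.25). Nearest to Gc were Alb (0.29), Vtn (0.33) and Fgb (0.34). Apoa4 had no near neighbour: Slc4a1, the red cell anion exchanger, stood at 1.07, Myh3, an embryonic muscle myosin, at 1.16 and Afp at 1.23. These distances describe 4 libraries and rest on genes that some table calls.

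Other genes of the pathway gave few values. Of 47 other albumin-family, lipoprotein and receptor genes, among them Afm, Apoe, Apoa2, Apoc3 and Lrp2, 0 were in any table, so their levels are not known here. Of 27 regulators of hepatic genes, 1 was in a table. Zfhx3, known in human hepatoma cells for binding an AT-rich element of the AFP enhancer, had 1.42 FPKM in ASP+ACE, 4.22 FPKM in IBU+ACE and 1.58 FPKM in Control. It rose in IBU+ACE over Control (log2 1.42) and over ASP+ACE (log2 1.57). In those pairs 151 of 217 and 160 of 202 transcripts with both values were listed as higher. The median log2 ratios over transcripts above 0 in both libraries were 1.04 and 1.58.

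Other plasma protein and liver genes were lower in the same library as the members. Of 45 such genes, 17 were in some table and 13 had values in both ACE+ACE and Control. All 13 fell in ACE+ACE, with a median log2 ratio of -1.78, beside 27.3% of transcripts listed as lower for that pair. These genes, too, could be read only through the authors' calls, so nothing is read from their counts. Over all 160 transcripts with values above 0 in both libraries the median was -0.34. The gene of this list with the highest level, Mt1, which binds zinc and copper, had 13.9 FPKM in ACE+ACE, 30.1 FPKM in IBU+ACE and 29.9 FPKM in Control. Trf (transferrin) had 6.28 FPKM in ACE+ACE and 29.2 FPKM in Control. Both fell in ACE+ACE, as did Mt2, Serpina6 and Ahsg. In IBU+ACE over ACE+ACE 14 of the 45 had both values and all 14 rose, beside 81.8% of transcripts listed as higher. Their median log2 ratio was 2.09, against 1.81 for the 6 members and 1.59 over 219 transcripts.

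In ASP+ACE over Control only 5 of the 45 had both values and 0 were listed, with a median log2 ratio of -0.43. Of the 5 members with both values, Afp, Apoa1 and Apoa4 were listed as lower, beside 19.3% of transcripts. That difference was not tested. The 5 with values in all 4 libraries (Ahsg, Ambp, Fgb, Serpina6 and Vtn) had a summed level in ACE+ACE of 30.8% of Control, against 78.4% for ASP+ACE, with IBU+ACE at 137%. Serpina6 had 3.49 FPKM in ACE+ACE, 8.69 FPKM in ASP+ACE, 16.3 FPKM in IBU+ACE and 12.3 FPKM in Control, the order seen for Alb. Ahsg (fetuin-A) had 2.38 FPKM in ACE+ACE, 6.10 FPKM in ASP+ACE, 10.3 FPKM in IBU+ACE and 5.90 FPKM in Control.

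**Figure D4:**
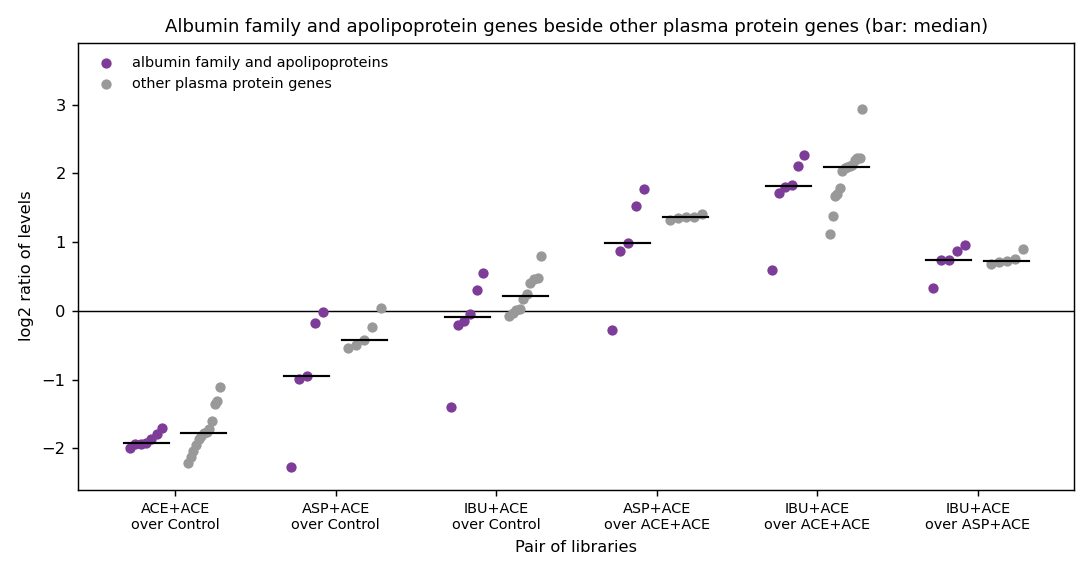
Log2 ratio of levels for each pair of libraries, with the albumin family and apolipoprotein genes (left of each pair) beside other plasma protein genes (right); bars are medians. In ACE+ACE over Control the medians are -1.93 and -1.78, and the lowest point of the first group in ASP+ACE and IBU+ACE over Control is Apoa4.

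Of 16 hepatocyte markers 7 were in some table. The 4 with values in both ACE+ACE and Control all fell in ACE+ACE, beside 27.3% of transcripts listed as lower for that pair. The 3 with values in all libraries, Ahsg, Ambp and Fgb, summed to 4.44 FPKM in ACE+ACE, 11.5 FPKM in ASP+ACE, 19.2 FPKM in IBU+ACE and 13.7 FPKM in Control. None of the 7 was listed at 0: Fabp1, the liver fatty acid binding protein, had 3.64 FPKM in IBU+ACE and 0.473 FPKM in ACE+ACE, the 2 libraries where it could be read. The defining factor Hnf4a was in no table. Of 8 visceral endoderm (yolk sac) markers and 8 mesonephros and kidney tubule markers, 0 were in any table. Whether these cell types take part in the members' levels was not tested. In such bulk samples fewer cells of a type and less RNA per cell cannot be told apart. Red cell genes had other orders of levels. Hbb-y, an embryonic globin gene, had 2350.3 FPKM in ACE+ACE, 1809 FPKM in ASP+ACE, 1557 FPKM in IBU+ACE and 3012 FPKM in Control. Its lowest library is the one where the members' sum was highest. Slc4a1 had 7.35 FPKM in ACE+ACE, 8.15 FPKM in ASP+ACE, 14.3 FPKM in IBU+ACE and 15.5 FPKM in Control, which is the order of Afp. Of the testis markers, Sox9, the Sertoli cell factor, had 5.97 FPKM in ACE+ACE, 5.22 FPKM in ASP+ACE, 10.04 FPKM in IBU+ACE and 5.98 FPKM in Control. Cst9 was the only other of 7 Sertoli markers in the tables, and 0 of 5 Leydig and 0 of 5 germ cell markers were.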

How the data were processed

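Libraries were stranded, made after ribosomal RNA depletion and read from both ends, per the labels' protocols. Per the submitters' processing notes, TopHat2 2.1, Bowtie2 2.2.6, SAMtools 1.3 and Cufflinks 2.2.1 were used with GRCm38; settings are not stated. The authors deposited 6 tables of called transcripts, 1 per pair of libraries (726 rows, all marked significant). The deposited values are taken as FPKM from the table layout; per the file headers the tables also hold log2 fold changes (second library over first), p-values and q-values. Every deposited p-value was 5e-05. EtOH, the name left after the drug names were matched to titles, was taken as Control.

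Decimal commas were converted (Python 3.11.15; pandas 2.3.3; numpy 2.4.6; figures by matplotlib 3.10.9) and values combined per library; 359 repeated values were compared and 0 disagreed. Reading and counting were tested on simulated data. No test was run, since each group has 1 library. The members and lists were chosen with earlier results of these data known. Named genes are the 7 members, the listed genes of the lipoprotein list, up to 5 genes per other list by highest level, and the 3 genes nearest to each member. Of the red cell list only Hbb-y and Slc4a1 are reported; Sox9 and Cst9 are the Sertoli markers found. Loci are 1-based on GRCm38; overlaps come from GENCODE M21. All 7 members had a promoter window in RefSeq's GRCm38.p6 table. Alternatives were a minimum absolute log2 ratio of 1, a minimum of 1 FPKM in the higher library, adding 1 or 0.1 FPKM, and a mean of ratios in place of a sum.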

Additional observations from a re-analysis of the deposited data

How the results depend on the processing

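Requiring an absolute log2 ratio of at least 1 left 1 of the 3 members listed in ASP+ACE over Control (Apoa4), and 0 of the 3 in IBU+ACE over ASP+ACE. The other 31 alternative values of the counts, medians and sums stayed within 1.5 times of the reported ones, and no direction turned. Of the single-gene ratios and nearest-gene lists, 8 moved further, all with 1 FPKM added, and 65 did not; 6 were ratios of Gc or Apoa4, the genes with the lowest levels, and 2 were the nearest genes of Alb and Apoa4, of which 1 of 3 was shared. Leaving out a replicate could not be tried with 1 library per group. No paired analysis was possible because each group has 1 library. Called rows alone allow no other scaling between libraries, and the depth is unknown, so no interval or detection limit is given.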
